A study of Rattus norvegicus with 2 samples.

Results

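The fibrillar and basement membrane collagens of the heart were followed in the hypertensive Dahl salt-sensitive rat, together with Serpinh1 and Lox, which act on collagen after translation. Probe sets were taken where the platform annotation gives 1 of 10 gene symbols (Col1a1, Col1a2, Col3a1, Col4a1, Col5a1, Col5a2, Col12a1, Col18a1, Serpinh1 and Lox) and no other. This gave 15 probe sets for 8 of the 10 genes, out of 7006 probe sets for 4736 genes on the array. No probe set carried the symbol Col4a1 or Col18a1, so both were not analysed here, and no basement membrane collagen of the set has a value. Cardiac RNA of male Dahl salt-sensitive rats aged 17 weeks was read on 2 arrays. One array held the high salt diet, labelled as chronic heart failure, and 1 array the low salt diet, for which no heart condition is labelled. All animals were of the salt-sensitive strain, so neither group is a normotensive strain control. Whether an RNA came from a single animal or from several, and from which chamber, is not given in the sources used here.

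Fibrillar collagens are secreted as procollagens, trimmed outside the cell and packed into fibrils that carry tension in the myocardium. Type I, built from Col1a1 and Col1a2 chains, forms the stiff thick fibres, and type III, built from Col3a1 chains alone, the finer mesh around the myocytes. Type V, with Col5a1 and Col5a2 chains, starts fibrils and sets their width, and type XII decorates their surface. Serpinh1 encodes HSP47, the chaperone of the endoplasmic reticulum that binds folded procollagen, and Lox encodes lysyl oxidase, the enzyme that starts the cross-linking of fibrils. In the heart these genes are known mainly as products of fibroblasts.

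With 1 array per group there is no spread between replicates, so no test was made, and each difference below compares these 2 arrays. The deposited intensities are on a linear scale and 27.3% of the 8740 non-control values on each array lie below 0. A noise floor was therefore set at 126.4: of the values below 0 on either array, 95% are smaller in size. A probe set is called measured where it reached this floor on at least 1 array, as 1955 did, and lower values were raised to the floor before taking ratios. A ratio is a lower bound if 1 of its values was raised. The only error these arrays give is that among probe sets of the same gene. The log2 ratios of such probe sets varied with an SD of 0.22 (231 genes with 513 probe sets at or above the floor on both arrays), which holds no variation between animals. The heart label was borne out by the brightness of cardiomyocyte genes, such as Actc1 (8364.9 on the high-salt array and 7848.9 on the low-salt array), Tnnt2 (5576.1 and 6017.5) and Myl3 (5966.2 and 6046.3). Of 10 such genes listed, 8 were measured, and Ryr2 (85.5 and 98.7) and Ttn (-63.5 and -62.3) were not. Bright genes were not all alike on the arrays. Myh6 read lower with high salt in each probe set (4416.3 and 4739.8, 1673.2 and 2398.5, 1706.2 and 3276.7). Tnni3 did so too (5503.1 and 6264.6, 2844.5 and 3976.3).

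Type I collagen read higher in the high-salt heart in all its probe sets, and type III collagen and Serpinh1 read lower, none of them by 2-fold. Of the 15 probe sets, 10 were measured (6 genes), 7 of them on both arrays (4 genes: Col1a1, Col1a2, Col3a1 and Serpinh1). Of the 7, 4 had a ratio above 1, where 45.4% of the 1561 probe sets that reached the floor on both arrays did. The other 3 measured probe sets (Col1a1 Z78279_at, Col5a2 rc_AI179399_at and Lox S66184_s_at) reached the floor on the high-salt array alone. That fixes the direction of their ratios, so they are left out of this count. At 1.5-fold, 2 of the 10 were higher (8.75% of all measured) and 0 lower (9.0%). At 2-fold, 0 were higher (3.53%) and 0 lower (1.69%). The median log2 ratio of the 10 was 0.30 (quartiles -0.08 and 0.52), beside -0.04 over all 1955. Over the 7 it was 0.51, beside -0.05 over the 1561. A reference list of 10 measured probe sets of housekeeping and translation genes, all at or above the floor on both arrays, had a median of 0.26. Of these 10, 8 had a ratio above 1 (45.4% of all such probe sets). The listed genes Gapdh and Ppia are not among them, since only probe sets with 1 symbol were used. With several symbols, M17701_s_at (Gapdh) had a log2 ratio of -0.14. For Ppia, M19533mRNA_i_at had -0.19, rc_AA818152_f_at -0.19 and rc_AA818858_s_at 0.02. The genes of the collagen set are described one by one.

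**Figure D1:**
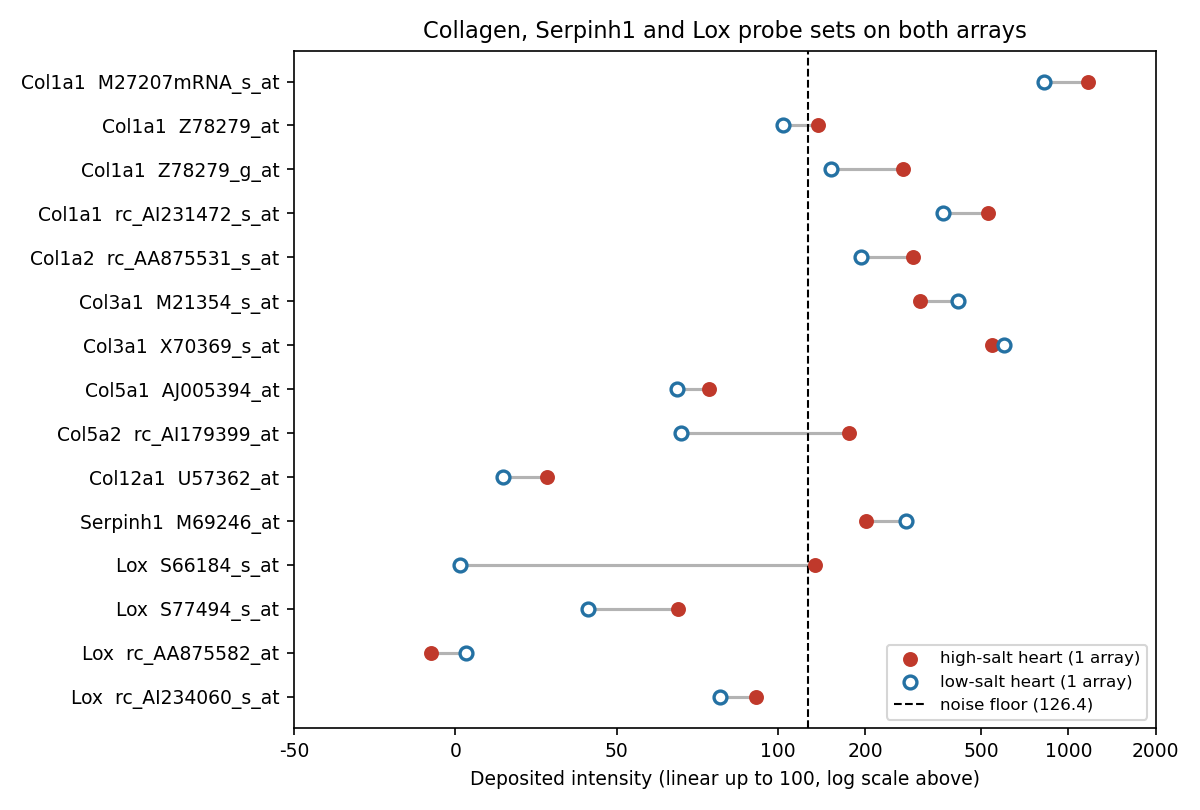
Deposited intensity of all 15 probe sets of the 8 genes on the high-salt array (filled) and the low-salt array (open), 1 array each, with the noise floor of 126.4 dashed; the axis is linear up to 100 and logarithmic above. The 4 Col1a1 probe sets and Col1a2 lie to the right in the high-salt heart and both Col3a1 probe sets and Serpinh1 to the left, while 5 probe sets stay under the floor on both arrays.

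Col1a1, the alpha-1 chain of type I collagen, had 4 probe sets. The brightest, M27207mRNA_s_at, read 1169.7 on the high-salt array and 823.3 on the low-salt array. For rc_AI231472_s_at the readings were 530.1 and 370.0. Z78279_g_at gave 270.3 and 152.4. All 3 reached the noise floor on both arrays and were higher on the high-salt array, by 1.42-fold, 1.43-fold and 1.77-fold. The fourth, Z78279_at, read 137.3 and 104.5, which is at least 1.09-fold higher against the floor. Over the 4 probe sets the mean log2 ratio was 0.49 ± 0.29 (SD over probe sets of 1 pair of arrays, n = 4). The bound of Z78279_at (0.12) enters at face value, so the mean is itself a lower bound and the SD depends on the floor. These are not independent measurements, since the last 2 were designed on the same sequence entry and the suffixes _s_at and _g_at mark probes that can be shared with related sequences. The brightest 2 had log2 ratios of 0.51 and 0.52, closer to each other than the SD of 0.22 among probe sets of a gene. Only Z78279_g_at lay beyond the central 90% of all measured log2 ratios, which ran from -0.74 to 0.81; it ranked 95 of 1955 from the highest, and the brightest 2 ranked 214 and 202.

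Col1a2, the alpha-2 chain that joins Col1a1 in the type I triple helix, had 1 probe set, rc_AA875531_s_at. It read 292.8 with high salt and 193.8 with low salt, a 1.51-fold difference (log2 ratio 0.60, rank 167 of 1955). The gap between the readings was smaller than the noise floor. With the floor raised to the 99th percentile of the values below 0, at 271.2, the log2 ratio was 0.11. Its log2 ratio lay between those of the 3 bright Col1a1 probe sets, so both chains of type I collagen read higher on the same array and by a similar factor.

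Col3a1, the sole chain of type III collagen, went the other way. Its probe set X70369_s_at read 545.4 with high salt and 599.5 with low salt. For M21354_s_at the readings were 308.9 and 416.2. Both were lower on the high-salt array, by 1.10-fold and 1.35-fold (log2 ratios -0.14 and -0.43), and the first difference is smaller than the SD among probe sets of a gene. A common scaling factor between the arrays cancels from the contrast with type I collagen, which is a difference of log2 ratios. Scalings that vary with intensity (quantile and loess) do not cancel, but each of these ratios kept its sign under them. Over the 6 combinations of a Col1a1 and a Col3a1 probe set above the floor on both arrays, the log2 ratio of Col1a1 exceeded that of Col3a1 by 0.64 to 1.26 (median 0.94), in 6 of 6. For Col1a2 the excess was 0.73 and 1.03. The combinations reuse the same few readings, and their common direction follows from the signs of the single ratios. Every probe set in them carries the suffix _s_at or _g_at, so its probes can be shared with related sequences. Each gap is larger than the SD of 0.22 among probe sets of a gene. That SD describes single ratios within a gene, so it cannot show whether a gap between genes is unusual. The central range of all measured log2 ratios, given above for Col1a1, ran from -0.74 to 0.81. Gaps between other pairs of genes were not computed, and no spread between animals stands behind those given here.

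**Figure D2:**
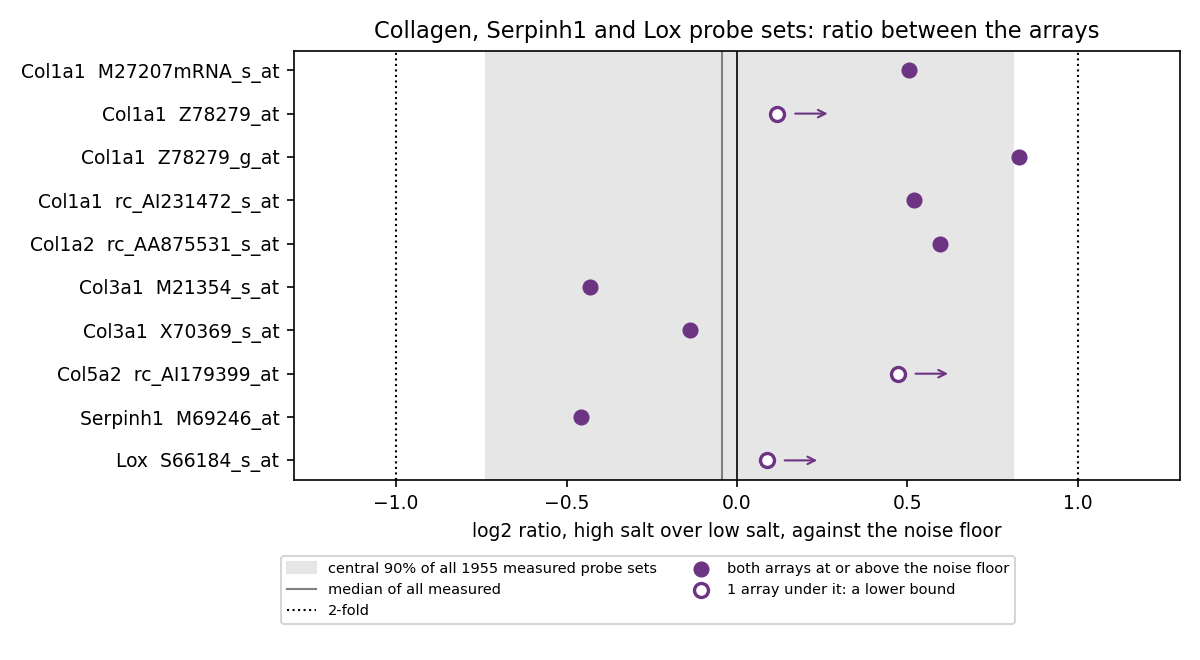
Log2 ratio (high salt over low) for the 10 measured probe sets, with values under the noise floor raised to it; filled points reached the floor on both arrays and open points with arrows are lower bounds. Grey marks the central 90% of all 1955 measured probe sets (-0.74 to 0.81), which holds every point other than Col1a1 Z78279_g_at at 0.83, and no point reaches the dotted 2-fold lines.

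Type V collagen was near or under the noise floor. Col5a2, the alpha-2 chain, read 175.4 with high salt and 70.1 with low salt (rc_AI179399_at), which is at least 1.39-fold higher against the floor. As deposited the readings differ by 2.50-fold, the widest of the collagens, but the lower one has no reliable size. With the noise floor at the 90th percentile of the values below 0, at 84.9, the log2 ratio was 1.05. Col5a1, its partner chain, read 78.7 and 68.7 (AJ005394_at) and Col12a1, the chain of type XII, 28.4 and 14.9 (U57362_at). Neither reached the floor, so no direction can be given for either. Col3a1 and Col5a2 are neighbours in the rat annotation of RefSeq, with 0 genes starting between them. Col3a1 read lower with high salt in both its probe sets. Col5a2 reached the floor with high salt alone, which fixes the direction of its ratio.

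Serpinh1, the procollagen chaperone, read 200.3 with high salt and 275.3 with low salt (M69246_at), 1.37-fold lower (log2 ratio -0.46, rank 266 of 1955 from the lowest). Here too the gap between the readings was smaller than the noise floor. It was thus on the opposite side from its client Col1a1, whose 3 bright probe sets exceeded it by 0.97 to 1.29 on the log2 scale, and from Col1a2, which exceeded it by 1.05. Against a floor of 271.2 the Serpinh1 log2 ratio was -0.02, since 1 reading then lay under that floor and the other just above it.

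Lox, the cross-linking enzyme, had 4 probe sets that gave no common picture. S66184_s_at read 134.4 with high salt and 1.6 with low salt. The difference of 132.8 exceeded the noise floor, but the high reading passed the floor so narrowly that the bound is 1.06-fold. S77494_s_at read 68.9 and 41.2, rc_AI234060_s_at 93.3 and 81.9, and rc_AA875582_at -7.5 and 3.3. These 3 stayed under the floor on both arrays and have no order. A lower floor of 10.9, the 40th percentile of all values, would make S66184_s_at at least 12.3-fold higher, a size that none of the other Lox probe sets shows. The difference between the arrays was at least as large as the noise floor in 3 of the 15 probe sets (7.09% of all 8740): Col1a1 M27207mRNA_s_at (346.4) and rc_AI231472_s_at (160.1), and Lox S66184_s_at.

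**Figure D3:**
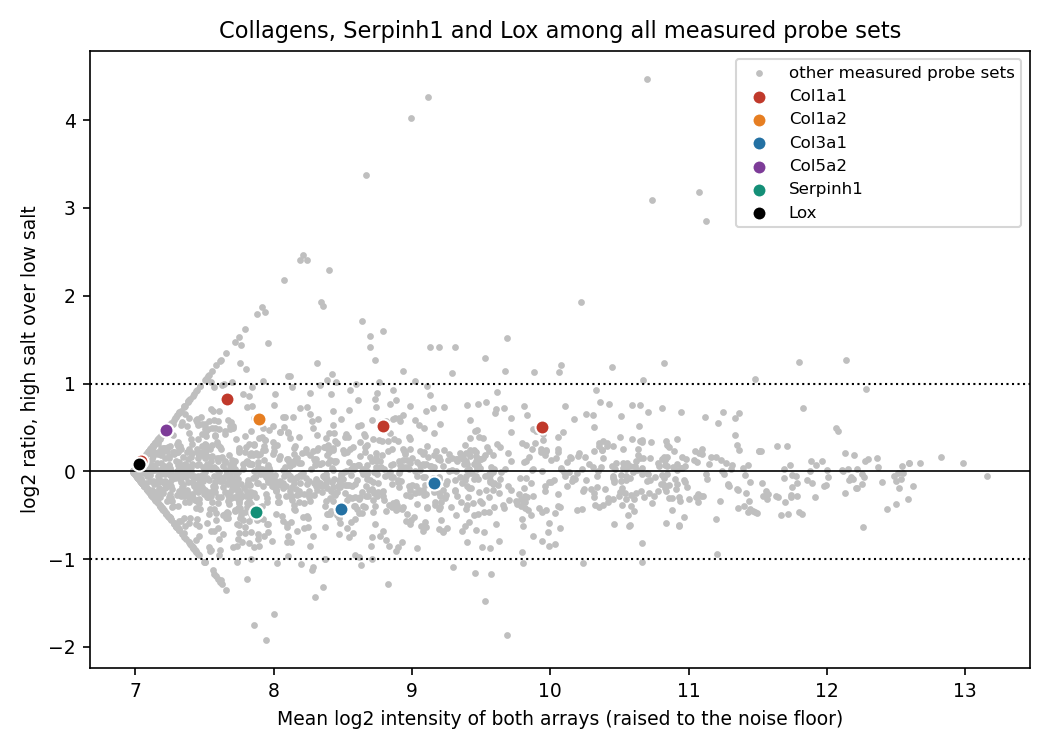
Log2 ratio (high salt over low) against the mean log2 intensity of both arrays for the 1955 measured probe sets (grey) with the 10 of the collagen set in colour; the slanted edges at the left come from raising values to the noise floor. The coloured points lie inside the grey cloud between the dotted 2-fold lines at -1 and 1.

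The promoters of the measured genes were read to show what their start regions hold. RefSeq start regions (GRCr8) were found for 6 of the 10 genes, and those of Col1a2, Col5a2 and Serpinh1 are printed because these genes are measured. Each is the 250 bases before the annotated start, read in the direction of the gene, with capitals for the motifs searched on both strands. These were CCAAT (bound by the factor NF-Y), TATAAA (the TATA box), GGGCGG (a GC box) and both ways of pairing inverted heat shock element units, TTCNNGAA and GAANNTTC.
Col1a2 (chr4:33518307-33518556, plus strand): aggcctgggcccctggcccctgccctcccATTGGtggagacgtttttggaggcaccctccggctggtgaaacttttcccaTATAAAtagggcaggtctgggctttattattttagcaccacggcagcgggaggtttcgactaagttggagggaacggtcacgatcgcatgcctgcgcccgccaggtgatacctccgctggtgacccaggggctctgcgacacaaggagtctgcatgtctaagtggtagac
Col5a2 (chr9:55090152-55090401, minus strand): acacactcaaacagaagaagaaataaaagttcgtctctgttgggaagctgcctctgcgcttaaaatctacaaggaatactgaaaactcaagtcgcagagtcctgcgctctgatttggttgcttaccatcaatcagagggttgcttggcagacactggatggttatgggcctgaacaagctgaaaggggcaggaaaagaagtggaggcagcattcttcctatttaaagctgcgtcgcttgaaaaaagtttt
Serpinh1 (chr1:163062977-163063226, minus strand): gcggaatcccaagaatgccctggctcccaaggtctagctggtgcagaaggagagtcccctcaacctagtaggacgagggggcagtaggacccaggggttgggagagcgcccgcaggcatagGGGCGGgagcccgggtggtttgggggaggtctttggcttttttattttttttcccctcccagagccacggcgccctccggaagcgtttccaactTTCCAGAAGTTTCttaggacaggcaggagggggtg

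The capitals in Col1a2 are CCAAT on the opposite strand, 221 to 217 bases before the start, and a TATAAA 170 to 165 bases before it. The first motif stood in 34.0% of all 33469 promoters of the same length, and the second in 12.9%. In Serpinh1 they are GGGCGG, 129 to 124 bases before the start (30.5% of all promoters), and a run in which TTCNNGAA and GAANNTTC overlap, between 35 and 23 bases before it. These pairs of heat shock units stood in 7.48% and 7.23% of all promoters. None of the motifs stood in these 250 bases of Col5a2. A match describes letters and not a bound site.

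The other collagens on the array were dim. Of 9 further collagen genes with 12 probe sets, only Col15a1 was measured. Col15a1, a collagen of the basement membrane zone related to Col18a1, read 69.2 with high salt and 144.5 with low salt, at least 1.14-fold lower. The type IV chains Col4a3 (4.3 and 10.3) and Col4a5 (35.2 and 42.1) were under the floor on both arrays, as were Col8a1 (95.5 and 51.9), Col26a1 and the cartilage collagens Col2a1, Col9a1, Col10a1 and Col11a1. The non-collagen partners in the basement membrane had 8 measured probe sets, all at or above the floor on both arrays. Of these, 4 had a ratio above 1 (45.4% of all such probe sets) and 4 below it. None was 2-fold higher (3.53% of all measured) or lower (1.69%), and the median log2 ratio was -0.0006. Lamc1, the laminin gamma-1 chain, read 586.5 and 394.5. Lamb2, the laminin beta-2 chain, gave 513.3 against 679.0 in one probe set and 217.3 against 198.6 in another. Sparc, a collagen-binding matricellular protein, read 4805.4 against 4721.8 in its brightest probe set, and its 4 had log2 ratios from -0.30 to 0.15.

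Genes that modify, process or cross-link collagen had 8 measured probe sets of 5 genes, 5 of them at or above the floor on both arrays. Of those 5, 4 had a ratio above 1 (45.4% of all such probe sets), with a median log2 ratio of 0.15. Of the 8, 1 was at least 2-fold higher (3.53% of all measured) and 0 lower, and their median was 0.24. The reference list, with all its measured probe sets at or above the floor on both arrays, had a median of 0.26. The one past 2-fold was Loxl1, a lysyl oxidase relative known for elastic fibres. It read 301.7 with high salt and 98.1 with low salt in rc_AA800844_s_at, at least 2.39-fold higher, and 154.1 against 39.6 in rc_AA859805_at, at least 1.22-fold higher. Both Loxl1 probe sets reached the floor on the high-salt array alone, as did the measured Lox probe set. P4ha1, the catalytic subunit of prolyl 4-hydroxylase, read 147.4 and 81.3 (at least 1.17-fold higher). P4hb, its other subunit, read 639.2 and 636.8 in one probe set and 293.5 and 212.1 in another. Ppib, a prolyl isomerase of procollagen folding, read 408.9 against 603.9 and, in a second probe set, 328.7 against 276.0, so that its probe sets disagree in direction. Plod3, a lysyl hydroxylase, read 156.6 and 140.8, and Pcolce, an enhancer of procollagen trimming, 122.7 and 32.4, just under the floor.

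Of 7 measured probe sets for collagen breakdown and its inhibitors, 5 reached the floor on both arrays, and 5 of these 5 had a ratio above 1 (45.4% of all such probe sets), with a median log2 ratio of 0.68. The other 2, of Ctsl and Ctss, reached it on the high-salt array alone, and over the 7 the median was 0.30. In the reference list, where all measured probe sets reached the floor on both arrays, the median was 0.26. At 2-fold, 1 of the 7 was higher (3.53% of all measured) and 0 lower. Ctsl, a lysosomal protease, read 1151.5 against 471.5 in its brighter probe set, a 2.44-fold difference, and Ctsb, of the same class, 643.1 against 337.3. Timp2 and Timp1, inhibitors of the matrix metalloproteinases, read 695.1 against 433.2 and 258.0 against 209.1. The gelatinase Mmp2 read 188.7 against 163.1 in one probe set and stayed under the floor in the other, as did all probe sets of the collagenases Mmp8, Mmp13 and Mmp14. Among collagen receptors, 4 probe sets were measured, with Itgb1, the shared beta-1 integrin chain, at 876.1 against 521.0. Ddr1, a collagen receptor kinase, read 122.1 against 230.4, at least 1.82-fold lower, and the scavenger receptor Cd36 was lower in both its probe sets (336.6 against 413.3 and 294.4 against 317.3). Of 19 probe sets for TGF-beta signalling, which drives collagen transcription in fibroblasts, 1 was measured, a Smad2 probe set at 59.9 against 141.7. All ligand probe sets lay under the floor and have no order: Tgfb1 (60.8 and 17.7), Tgfb2 (75.4 and 8.9) and Tgfb3 (46.4 and 56.4, and 83.3 and 89.6).

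**Figure D4:**
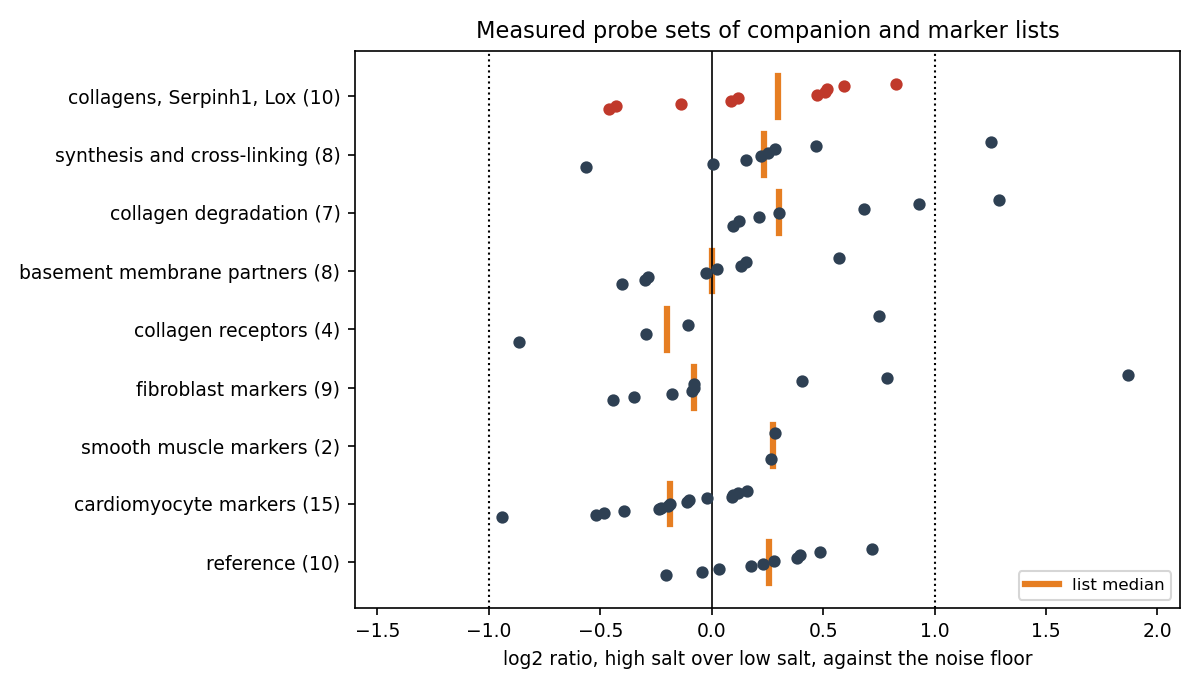
Log2 ratio (high salt over low) for every measured probe set (points, with the number in brackets) of the collagen set, 4 companion lists, 3 marker lists and the reference list, spread vertically for visibility, with the list median as an orange bar and 2-fold as dotted lines. The collagen set has a median of 0.30 and the reference list one of 0.26, whereas the cardiomyocyte markers centre on -0.19. Over probe sets at or above the floor on both arrays these medians are 0.51, 0.26 and -0.15.

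Markers of the cells that could carry these transcripts did not move together. In bulk tissue, fewer cells of a type and less RNA per cell cannot be told apart. Of 9 measured fibroblast probe sets, 6 reached the floor on both arrays, of which 1 had a ratio above 1 (45.4% of all such probe sets). The median log2 ratio of the 9 was -0.08. Over all 19 fibroblast probe sets, those under the floor included, the summed intensity was 4550.7 on the high-salt and 3989.8 on the low-salt array. Vim (975.5 and 564.8) was the higher one of the 6, and S100a4 (461.8 and 99.8) and Postn (167.3 and 5.0) reached the floor with high salt alone. Lum, lumican, reached it with low salt alone (115.9 and 172.1, at least 1.36-fold lower). The 4 probe sets of Dcn, decorin, were all lower, with the brightest at 1364.9 and 1443.6. The measured Pdgfra probe set read 140.0 and 158.6, and all those of Thy1, Ddr2, Tcf21 and Pdgfrb were under the floor. Smooth muscle markers were measured through Acta2 alone (378.5 against 314.6 and 315.1 against 258.6), endothelial markers through Flt1 alone (121.3 and 127.9). Cardiomyocyte markers had 4 of 14 ratios above 1 among probe sets at or above the floor on both arrays (45.4% of all such). Leukocyte markers had 4 measured probe sets and went both ways, with Lyz2 at 458.6 against 130.4 and the brighter Cd74 probe set at 507.3 against 1144.4. Over all 11 leukocyte probe sets the summed intensity was 1414.8 and 2170.5. Most of the low-salt sum was Cd74, whose other measured probe set read 191.6 against 516.0, and Lyz2 went the other way. The sum therefore gives no direction for leukocytes as a whole. The red cell markers summed to 8158.4 on the high-salt and 3327.0 on the low-salt array. Most of this was Hbb (6982.3 and 2910.5), so the arrays also differ in that blood content marker. The other red cell probe set at the floor on both arrays, Slc4a1 J04793_at, read 168.3 and 174.8. Alas2 (698.0 and 104.5) and Slc4a1 rc_AA866414_at (264.6 and 119.8) reached the floor with high salt alone. The part of these cell types in the collagen readings was not tested.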

How the data were processed

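The authors deposited linear intensities, 1 for each probe set on an array, in a table whose columns were both matched to a sample. Per the labels' protocols, total RNA was made into biotin-labelled cRNA by in vitro transcription. The software behind these values is not given in the sources used here, and no detection calls were used. The 2% trimmed means of the 8740 non-control probe sets, 99.2 on both arrays, differed by 0.072%, under the limit of 10% set for rescaling, so values were used as deposited. Gene symbols came from the 2016 annotation of the platform: 7006 probe sets had 1 symbol, 308 several and 1426 none, and those with several or none were not used for genes.

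Both values were raised to the noise floor of 126.4 before the log2 of high over low salt was formed. The noise floor was reached by 20.0% of the probe sets on the high-salt array and 20.3% on the low-salt array. The ratio step was checked on simulated arrays. Summed intensities set values below 0 to 0. With 1 array per diet no p-value was computed, and the number of arrays limits the precision. All probe sets of the 10 genes are named, with at most 5 genes of each companion list with the largest ratios and, of marker lists, up to 4. Genes named beyond this (Pcolce, Mmp8, Mmp13, Mmp14, Tgfb1, Tgfb2, Tgfb3, the other collagens and further markers) were picked with their values known. The members and lists were chosen with earlier results of these data known. Alternatives were 4 scalings (2% trimmed mean, quantile, median and loess with a span of 0.4), other floors, 1 value per gene, other probe set types and thresholds of 1.5-fold and 3-fold. Promoters came from RefSeq, build GRCr8; the build behind the array annotation is not named, so no other coordinates are given. The work used pandas 2.3.3, numpy 2.4.6 and statsmodels 0.14.6 under Python 3.11.15; figures used matplotlib 3.10.9.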

Additional observations from a re-analysis of the deposited data

How the results depend on the processing

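All 10 measured probe sets kept the sign of their log2 ratio under every alternative that gave them a value, the 4 scalings included. For the 3 that reached the floor of 126.4 on the high-salt array alone, that floor fixes the sign. Against 84.9 Z78279_at lay above the floor on both arrays, and against 10.9 so did Col5a2. Without probe set types that can share sequence, 3 were left (Serpinh1, Col5a2 and Col1a1 Z78279_at, median 0.12). Col3a1 and Col1a2 have no value there, so that alternative cannot show the contrast of type I with type III. The median log2 ratio of the set ran from 0.044 to 0.51 over 11 alternatives. It was 0.044 with the noise floor at the 99th percentile of the values below 0, where 6 probe sets are left and the ratios of Col1a2 and Serpinh1 shrink toward 0 because the floor lies near or above their readings; its other values lay within the SD of 0.22 among probe sets of a gene. The count at least 2-fold higher, 0 here, was 2 with the lower floor at the 40th percentile (Col5a2 and Lox), 1 with the noise floor at the 90th percentile (Col5a2) and 2 with a 1.5-fold threshold (Col1a1 and Col1a2). The count at least 2-fold lower was 0 under each alternative. Companion list medians were less steady. That of the collagen receptors changed sign, from -0.20 to 0.09 with the lower floor and to 0.32 without probe set types that can share sequence, and that of the basement membrane partners lay on either side of 0 (-0.16 to 0.04). For collagen breakdown the median moved from 0.30 to 0.93 with the floor at the 99th percentile and to 0.68 over probe sets at or above the floor on both arrays, and it ran from 0.26 to 0.93 in all. The synthesis and cross-linking median moved from 0.24 to 0.47 with the floor at the 90th percentile and ran from 0.11 to 0.47. No probe set was annotated to several symbols of which 1 is in the set, so that alternative gave no value. The arrays bear on these 2 RNA preparations alone, and 5 of the 15 probe sets lie under the noise floor on both.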
